A study of Mus musculus with 6 samples.

Results

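A set of 6 annotated genes was followed across the 6 libraries of dural lymphatic endothelial cells (LECs): the predicted genes Gm10722, Gm10720, Gm17535, Gm10717 and Gm10715, and Sfi1. They were taken by name from the 55401 genes of the deposited tables, and they had been chosen by their counts and TPM values (transcripts scaled for length and library total), which were much higher after AAV-VEGF-C. Their difference between the groups is therefore given as a description, with no test. That their libraries do not overlap between the groups largely follows from the same choice. The share of all genes without such overlap was not counted. All 6 genes passed the filter on low counts, which kept 17459 genes, but Gm10720 could do so only through the AAV-VEGF-C libraries.

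LECs line the lymphatic vessels of the dura mater, the outer meningeal layer. They had been sorted as LYVE-1+, PDPN+, CD31+ and CD45- cells from the pooled meninges of 10 to 12 wild-type male C57BL/6J mice per library, after a single injection of an AAV9 virus into the cisterna magna at 4 wk of age. The virus encoded full-length mouse VEGF-C, the main growth factor of lymphatic endothelium (AAV-VEGF-C), or, in AAV-CTRL, a soluble part of VEGFR-3 unable to bind it, so both groups carried a virus and a secreted transgene product, and neither was untreated. Each group held 3 libraries from experiments numbered 1 to 3. The interval from the injection to the sort is not given for these cells in the sources used here.

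The libraries AAV-CTRL 1, 2 and 3 held 6530269, 7858091 and 12399498 counts in total, and AAV-VEGF-C 1, 2 and 3 held 564475, 1435008 and 3261935, so every AAV-VEGF-C library was shallower than every AAV-CTRL library. Only reads given to a gene enter these totals, which lie far below the number of sequenced reads given in the study's methods. Most reads are therefore not in them, and levels scaled to the total are relative to the assigned reads only. Depth and treatment cannot be told apart. All 8 lymphatic markers examined, Lyve1, Pdpn, Pecam1, Prox1, Flt4, Mmrn1, Reln and Ccl21a, were above 0 in every library, with a summed level of 461 to 574 TPM in AAV-CTRL and 149 to 336 after AAV-VEGF-C. Markers of other cells were also present, with summed levels of 899 to 1928 and 233 to 765 TPM for 5 fibroblast genes, 11.2 to 780 and 4.25 to 323 TPM for 5 leukocyte genes, and 61.1 to 217 and 9.05 to 57.0 TPM for 4 mural cell genes, in the controls and after AAV-VEGF-C in that order. For 3 Schwann cell genes they were 0.758 to 6.65 and 2.72 to 7.35 TPM, and for 3 red cell genes 3.49 to 86.9 and 0 to 41.4 TPM. Cd3e of the leukocyte list and all 3 red cell genes, Hbb-bs, Hba-a1 and Alas2, were at 0 in at least 1 library. In edgeR, 0 of the 8 lymphatic genes differed at an adjusted p under 0.05. Of the other markers, 1 fibroblast gene was lower and 1 Schwann cell gene higher, beside 0.659% lower and 10.5% higher among all tested genes. On the TPM scale the median log2 fold change of all tested genes was itself -0.72 (limma on log2(TPM + 1)), so lower TPM sums are not particular to these markers. In pooled sorted cells, fewer cells of a type and less RNA per cell cannot be told apart.

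The ends of mouse chromosomes that carry the centromere are built from satellite DNA, short units repeated in tandem over long stretches. The major satellite of pericentromeric heterochromatin is rich in A and T, and its chromatin is normally marked by histone H3 lysine 9 methylation, bound by HP1 proteins and little transcribed. Sfi1 is a different kind of gene: it encodes a conserved protein of the centrosome that binds centrins, small calcium-binding proteins of the centriole.

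The 5 predicted genes were annotated on the plus strand of chromosome 9 of GRCm38 (the build named mm10), in a cluster with 4 other predicted genes at the very start of the assembled sequence. Gm10722 lay at chr9:3000922-3002330, Gm10720 at chr9:3015654-3017210, Gm10717 at chr9:3025417-3033289, Gm17535 at chr9:3034599-3035805 and Gm10715 at chr9:3036877-3038316. Each was annotated as protein-coding, each contained an intron of 2 to 4 bases, and each overlapped the long noncoding gene Gm26870 on the minus strand. Introns under 10 bases were found in 95 of 22028 protein-coding genes (0.431%). Sfi1 was annotated at chr11:3131850-3193463 on the minus strand with 20 transcripts, near the start of chromosome 11, where a single annotated gene started before it.

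The longest exons of Gm17535, Gm10722, Gm10715 and Gm10717 were repeats. The longest exon of Gm17535, which has 483 bases, matched itself at 94.8% of positions when shifted by 234 bases. The same shift gave the best match in Gm10722 (95.2%), Gm10715 (91.6%) and Gm10717 (82.7%), whereas the longest exon of Gm10720, with 273 bases, was too short for that comparison and matched itself best at a shift of 118 bases (67.1%). A weaker match of 60.2% to 62.8% was seen at a shift of 58 bases in the other 4 genes. Of 38626 annotated genes with an exon of at least 400 bases, 8 (0.0207%) matched themselves at a shift of 234 bases as well as Gm10717, the least regular of the 4. The 5 predicted genes had a GC content of 34.5% to 35.8% in their transcripts, against a median of 50.1% for all tested genes. The first and second unit of the Gm17535 exon and the closest unit of the other 3 genes are printed 5′ to 3′ on the plus strand of GRCm38, read from the GENCODE M21 transcripts, to show how alike they are. Capitals mark bases that differ from the first unit of Gm17535.
Gm17535 unit 1, chr9:3034669-3034902: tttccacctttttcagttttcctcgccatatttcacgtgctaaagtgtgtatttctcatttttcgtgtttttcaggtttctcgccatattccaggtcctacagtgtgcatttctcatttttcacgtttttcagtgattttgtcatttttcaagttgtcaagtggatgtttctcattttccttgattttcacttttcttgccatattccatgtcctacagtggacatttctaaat
Gm17535 unit 2, chr9:3034903-3035136: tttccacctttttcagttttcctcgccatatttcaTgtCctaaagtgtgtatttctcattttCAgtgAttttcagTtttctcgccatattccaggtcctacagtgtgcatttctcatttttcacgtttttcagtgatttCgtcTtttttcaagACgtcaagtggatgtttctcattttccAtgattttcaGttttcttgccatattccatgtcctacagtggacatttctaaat
Gm10717, chr9:3025486-3025719: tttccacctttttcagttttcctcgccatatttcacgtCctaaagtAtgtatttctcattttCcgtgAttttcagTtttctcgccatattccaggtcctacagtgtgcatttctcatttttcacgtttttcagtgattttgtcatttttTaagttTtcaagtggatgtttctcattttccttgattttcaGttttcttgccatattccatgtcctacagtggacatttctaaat
Gm10722, chr9:3001196-3001429: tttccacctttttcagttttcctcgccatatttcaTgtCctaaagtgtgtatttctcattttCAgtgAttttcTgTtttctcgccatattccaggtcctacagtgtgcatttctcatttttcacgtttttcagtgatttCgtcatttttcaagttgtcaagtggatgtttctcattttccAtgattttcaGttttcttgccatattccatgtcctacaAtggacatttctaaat
Gm10715, chr9:3037181-3037414: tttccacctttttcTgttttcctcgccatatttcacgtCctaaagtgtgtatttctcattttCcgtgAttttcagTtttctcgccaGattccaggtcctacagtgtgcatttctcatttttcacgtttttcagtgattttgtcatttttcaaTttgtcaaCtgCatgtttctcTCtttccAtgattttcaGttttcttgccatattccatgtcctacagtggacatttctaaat
The differences from unit 1 numbered 12 in unit 2 of the same exon, 8 in Gm10717, 11 in Gm10722 and 13 in Gm10715, out of 234 bases. In local alignments of the longest exons, the 10 pairs of predicted genes were 93.4% to 98.5% identical over 273 to 483 bases.

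Sfi1 had no such repeat in its longest exon. Its longest exon matched itself at no more than 28.0% of positions at any shift, its transcripts had a GC content of 54.1%, and the 5 alignments with the predicted genes covered only 22 or 23 bases. Introns and shorter exons were not examined for repeats. A tandem repeat was therefore seen in the longest exons of Gm17535, Gm10722, Gm10715 and Gm10717, and not in that of Sfi1. The exon of Gm10720 was too short to show it. No exon was compared with a known satellite sequence, so the term satellite-rich was not tested.

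Because reads are short, the sequence that each gene has to itself was measured by words of 31 bases. Of the words of a predicted gene, 94.4% (Gm10720), 93.3% (Gm17535), 77.8% (Gm10715), 76.8% (Gm10722) and 55.3% (Gm10717) also occurred in another annotated gene. The same 13 genes were involved each time: the 5 themselves, 4 other predicted genes of the cluster (Gm11168, Gm10721, Gm10719 and Gm10718), Gm26870, Gm10800 and Gm10801 on chromosome 2, and Gm21738 on chromosome 14. Of the words of Gm17535, 89.8% were also in Gm10717. How reads that match several genes were assigned is not given in the sources used here, so the split of counts between these genes is uncertain, and their sum is less dependent on it. Of the words of Sfi1, 9.59% were in other genes and none in the predicted genes. Its closest copy was the pseudogene Gm2420 on chromosome 5, which held 5.27% of its words. The longest transcripts of the pair were 87.6% identical over 1488 aligned bases, and the longest identical run inside an exon, 67 bases at chr11:3136946-3137012 of the minus strand, is printed to show the kind of stretch that Sfi1 shares.
Sfi1, chr11:3136946-3137012: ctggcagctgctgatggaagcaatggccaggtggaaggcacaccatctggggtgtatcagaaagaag

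**Figure D1:**
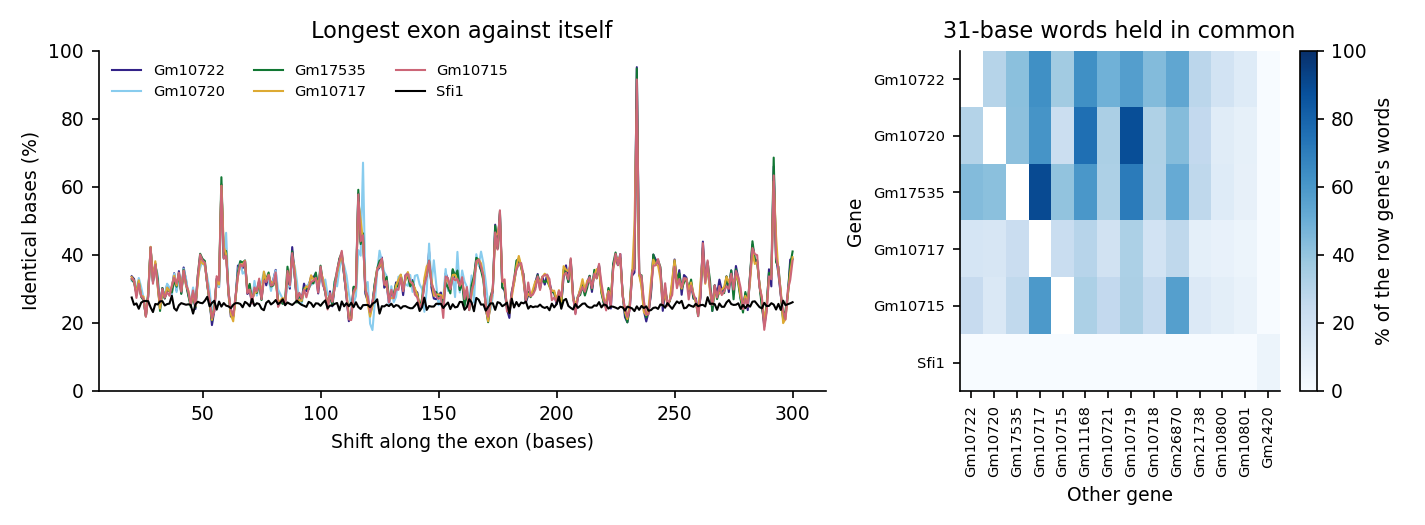
Left, share of identical bases (%) when the longest exon of each gene is compared with itself at each shift (bases), 1 line per gene. Right, share of the 31-base words of each gene (rows, %) that also occur in each other gene (columns). The predicted genes other than Gm10720 peak at a shift of 234 bases, with 82.7% to 95.2%, while Sfi1 stays at or below 28.0% and holds none of their words.

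Gm10717, which has 9 annotated transcripts, was the most abundant of the 5 predicted genes. The control libraries 1, 2 and 3 held 243, 131 and 414 of its counts, and the AAV-VEGF-C libraries 423, 1363 and 2311. Scaled to the library total (CPM), the controls stood at 37.1, 16.7 and 33.4 and the AAV-VEGF-C libraries at 750, 950 and 709. Every AAV-VEGF-C library lay above every AAV-CTRL library, and the lowest was 19.1-fold the highest control. Mean levels were 29.1 ± 10.9 and 803 ± 129 CPM (SD, n = 3 per group), with a log2 fold change of 4.97 (SE 0.455).

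For Gm10715 the counts were 50.7, 19.7 and 81.2 in the controls and 94.5, 275 and 532 after AAV-VEGF-C. The controls stood at 7.76, 2.50 and 6.55 CPM and the AAV-VEGF-C libraries at 167, 192 and 163 CPM. The groups did not overlap, AAV-CTRL 2 was the lowest library and the AAV-VEGF-C libraries lay within 1.18-fold of each other. The log2 fold change was 5.13 (SE 0.488).

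Gm10722, the first predicted gene of the cluster, had counts of 42.9, 32.4 and 82.3 in the controls and 59.7, 246 and 436 after AAV-VEGF-C. Its control level was 6.56, 4.12 and 6.64 CPM, against 106, 172 and 134 CPM after AAV-VEGF-C. The groups did not overlap, and the log2 fold change was 4.73 (SE 0.345).

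Gm17535, whose repeat units are printed above, had counts of 45.1, 26.8 and 69.3 in the controls and 54.0, 185 and 413 after AAV-VEGF-C. The control levels were 6.90, 3.404 and 5.59 CPM, and those after AAV-VEGF-C were 95.6, 129 and 127 CPM. The groups did not overlap here either, and the log2 fold change, 4.62 (SE 0.369), was the smallest of the 5.

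Gm10720 was the least abundant of the predicted genes, with counts of 13.7, 8.70 and 19.3 in the controls and 30.9, 83.3 and 177 after AAV-VEGF-C. The controls lay at 2.09, 1.11 and 1.56 CPM, and the AAV-VEGF-C libraries at 54.7, 58.0 and 54.3 CPM, close to each other. Counting error alone was wide in the controls, where the 95% Wilson interval of AAV-CTRL 2 ran from 0.603 to 2.18 CPM. The log2 fold change of 5.28 (SE 0.394) was the largest of the 5. At its control levels, Gm10720 could pass the filter on low counts only through the AAV-VEGF-C libraries, where it then had to be high. Its rank among the 5 therefore carries no weight.

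Sfi1 was higher too, but less so. The control libraries held 229, 239 and 422 of its counts, and the AAV-VEGF-C libraries 216, 372 and 1407. The levels were 35.1, 30.4 and 34.0 CPM in the controls, compared with 382, 259 and 431 CPM after AAV-VEGF-C. The controls were close together, within 1.15-fold of each other, and the groups did not overlap. Mean levels were 33.2 ± 2.44 and 358 ± 88.5 CPM, with a log2 fold change of 3.61 (SE 0.349).

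**Figure D2:**
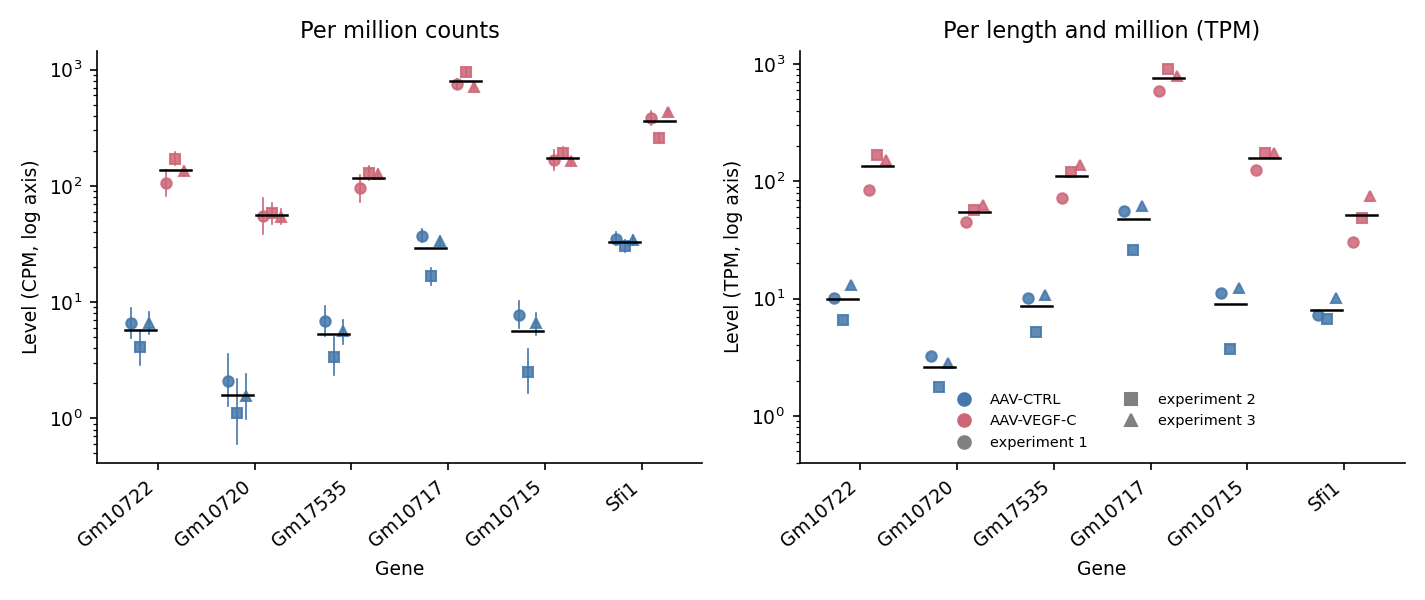
Levels of the 6 genes in each library, in CPM (left) and TPM (right) on log axes, with AAV-CTRL in blue, AAV-VEGF-C in red and a symbol per experiment; short black lines are group means (n = 3) and vertical lines 95% Wilson intervals of counting error. For every gene the AAV-VEGF-C libraries lie above the AAV-CTRL libraries, with mean ratios in CPM of 22.1 to 35.1 for the predicted genes and 10.8 for Sfi1.

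Levels of different genes were compared on the TPM scale, which corrects for length. In AAV-CTRL the order was Gm10717 (48.0 ± 19.2 TPM), Gm10722 (9.91 ± 3.20), Gm10715 (9.06 ± 4.63), Gm17535 (8.67 ± 3.00), Sfi1 (8.06 ± 1.84) and Gm10720 (2.62 ± 0.762). The libraries of the 4 genes in the middle overlapped, and only Gm10717 and Gm10720 stood apart. In AAV-VEGF-C the order was Gm10717 (767 ± 160 TPM), Gm10715 (158 ± 29.0), Gm10722 (135 ± 44.6), Gm17535 (110 ± 33.8), Gm10720 (55.1 ± 9.04) and Sfi1 (51.6 ± 22.4). Each gene after Gm10717 overlapped the next, except that every library of Gm17535 lay above every library of Gm10720. By mean TPM among all 55401 genes, Gm10717 ranked 1031 in the controls and 43 after AAV-VEGF-C, and Sfi1 ranked 6476 and 442. The ratios of mean TPM were 12.7 to 21.03 for the predicted genes and 6.39 for Sfi1, lower than on the CPM scale. None of the 6 overlapped between the groups on either scale, which their choice by higher values favoured. The share of all genes without overlap was not counted, so this is not read as a result about the 6.

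Summed, the 5 predicted genes received 0.00605% (95% Wilson interval 0.00548 to 0.00668), 0.00278% (0.00244 to 0.00318) and 0.00538% (0.00499 to 0.00580) of the counts in AAV-CTRL 1, 2 and 3. They received 0.117% (0.109 to 0.127), 0.15% (0.144 to 0.157) and 0.119% (0.115 to 0.122) in AAV-VEGF-C 1, 2 and 3. Mean shares were 0.00473% ± 0.00172 and 0.129% ± 0.0185 (SD, n = 3), a ratio of 27.2. The intervals cover counting error only. Before division by depth, the summed counts were 219 to 667 in the controls and 662 to 3869 after AAV-VEGF-C and so overlapped at their edge.

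The make-up of this sum varied little between libraries. Gm10717 took 59.7% to 63.9% of it in all 6 libraries, Gm10715 took 9.0% to 14.3%, Gm10722 9.02% to 14.8%, Gm17535 8.15% to 12.2% and Gm10720 2.90% to 4.66%. For each of the 5, the share overlapped between the groups. For each gene, the root mean square distance was taken between its centred log2 CPM profile and the mean profile of the 5. It was 0.108 to 0.217 over the 6 libraries. That mean contains the gene itself, and most words of each gene also occur in other genes. The way shared reads were split could fix the steady make-up and the small distances in advance, so no conclusion is drawn from them. The distance of the 5 from the profile of Sfi1 was 0.631 to 0.943. Sfi1 had 0.580 to 1.09 counts for each count of the 5 genes in the controls and 0.173 to 0.364 after AAV-VEGF-C, without overlap.

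Genes with related sequence were higher as well. Among all genes tested, 10.5% were called higher in AAV-VEGF-C and 0.659% lower (edgeR's quasi-likelihood test, Benjamini-Hochberg adjusted p under 0.05). Genes near 0 in the controls entered this share only through the AAV-VEGF-C libraries. With a mean TPM of at least 5, 9 of 7563 tested genes were called higher. The 4 other predicted genes of the cluster, each with over 50% of its words in the 5 genes, were all called higher, with log2 fold changes of 5.05 for Gm11168 (adjusted p = 0.0178), 4.38 for Gm10719, 4.32 for Gm10721 and 3.69 for Gm10718 (adjusted p = 0.0193 for each of the last 3). Mir101c, the remaining gene of that stretch, had no count in any library. With the genes elsewhere that share any word, 7 of 7 were called higher with a median log2 fold change of 4.32, beside -0.0037 for all tested genes. These genes share reads with the 5 and are not independent of them. The 4 calls of the cluster were lost without AAV-CTRL 2, without AAV-CTRL 3 or without AAV-VEGF-C 2, when only 0, 0 and 8 of all genes were called higher, though all 4 kept an unadjusted p under 0.05.

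**Figure D3:**
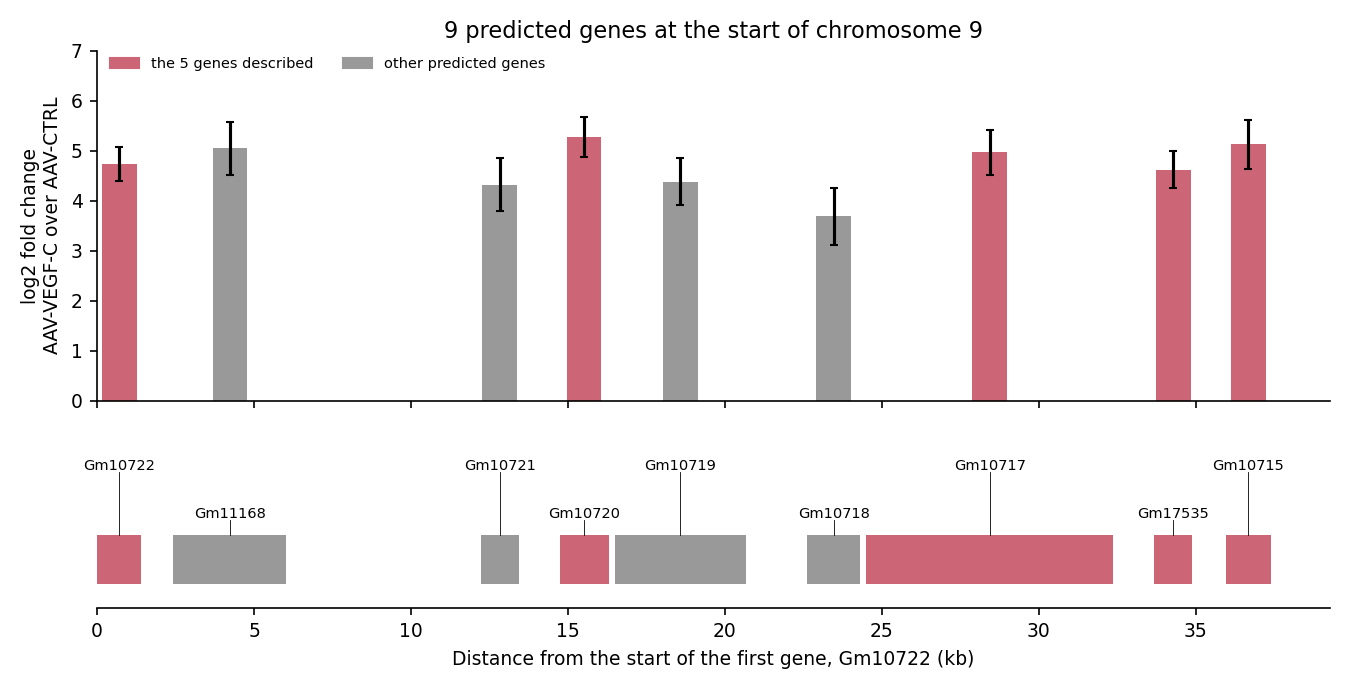
Upper panel, log2 fold change (AAV-VEGF-C over AAV-CTRL, bars, with SE) of the 9 predicted genes at the start of chromosome 9; lower panel, their extent in kb from the start of Gm10722. The 5 genes described are in red and span 4.62 to 5.28, and the other 4 are in grey and span 3.69 to 5.05.

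The 5 genes held a small part of the related sequence that was counted. Gm10800, which was named with Gm10801 after their values were seen, was counted 4143, 1809 and 14687 times in the controls and 5051, 14120 and 34586 times after AAV-VEGF-C, and its log2 fold change was 4.07 (SE 0.703, adjusted p = 0.0195). For Gm10801 it was 4.78 (SE 0.646, adjusted p = 0.0193). Together the 12 related genes in the tables, the 5 included, took 0.106% ± 0.0640 of the counts of the control libraries and 1.71% ± 0.205 of those of the AAV-VEGF-C libraries. The 5 predicted genes made up 3.21% to 6.96% of these counts in the controls and 6.61% to 8.08% after AAV-VEGF-C, and Gm10800 alone 53.0% to 70.6%. The groups overlapped in both shares.

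The surroundings of Sfi1 were next examined. Of 11 protein-coding genes within 500 kb of it, 10 were tested and 1 was called higher, a share near the 10.5% of all genes, with a median log2 fold change of -0.36. The gene called was Pla2g3, a secreted phospholipase (3.65, SE 0.839, adjusted p = 0.0320), with 7, 1 and 7 counts in the controls and 2, 6 and 39 after AAV-VEGF-C. The call was lost without AAV-CTRL 2, AAV-CTRL 3, AAV-VEGF-C 2 or AAV-VEGF-C 3. At 0.127 to 1.07 CPM in the controls, Pla2g3 could pass the filter only through the AAV-VEGF-C libraries, so its call carries no weight. Drg1, which overlaps Sfi1 on the same strand, stood at -1.14 on the log2 scale (SE 0.465, adjusted p = 0.159).

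Other transcripts annotated inside the Sfi1 locus were also examined, and these and Gm2420 were likewise named after their values were seen. Gm11400, a processed pseudogene on the same strand within an intron of Sfi1, had 28.2, 52.2 and 35.01 counts in the controls and 16.7, 49.9 and 245 after AAV-VEGF-C. This came to 4.32, 6.64 and 2.82 against 29.5, 34.8 and 75.2 CPM (log2 fold change 3.46, SE 0.492, adjusted p = 0.0193). Gm11399, annotated antisense to Sfi1 with 180 of its 1316 bases in Sfi1 exons, had no count in any control library and 4, 16 and 77 counts after AAV-VEGF-C. Whether the counting used strand is not given in the sources used here, so reads of Sfi1 and of Gm11399 may not be separable. The pseudogene Gm2420 had 4.1, 1 and 1.01 counts in the controls and 4.47, 12.6 and 49.8 after AAV-VEGF-C (log2 fold change 5.44, SE 0.838), beside 216 to 1407 counts of Sfi1 in the latter. Gm2420 and Gm11399 could pass the filter only through the AAV-VEGF-C libraries, where they then had to be high, so no test is given for them. Both genes with at least 20% of their words in Sfi1 were at 0 in every library.

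Genes that act on the same structures were examined from lists. Of 38 genes of heterochromatin and centromeres, 33 were tested and 0 were called in either direction by edgeR, with 2 higher and 2 lower at an unadjusted p under 0.05, with a median log2 fold change of -0.14. DESeq2 called 1 higher and 2 lower, limma on log2(TPM + 1) called 0 and the fit with the experiment as a block called 1 lower. The most abundant were Atrx, a chromatin remodeller of repeats, at -0.95 (SE 0.303, adjusted p = 0.0894), and Cenpb, the protein that binds the CENP-B box, at -0.49 (SE 0.243, adjusted p = 0.233). Of 20 centrin and centriole genes, 18 were tested and 2 were called higher, with a median of -0.05. This share, 11.1%, was near the 10.5% of all genes. The genes called were Poc1a (3.25, adjusted p = 0.0499), a centriole protein, and Plk1 (2.29, adjusted p = 0.0452), a mitotic kinase. Both were near the threshold, and leaving out any library left 1 call without AAV-VEGF-C 3 and none without any other. At 0.766 to 1.53 CPM in the controls, Plk1 could pass the filter only through the AAV-VEGF-C libraries, so its call carries no weight. Of 16 sensors of double-stranded RNA and their interferon regulators, 15 were tested and 0 were called by edgeR, DESeq2 or limma, with 0 higher and 1 lower at an unadjusted p under 0.05 and a median of -0.21. Adar, which edits double-stranded RNA, stood at -0.21 (adjusted p = 0.658).

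**Figure D4:**
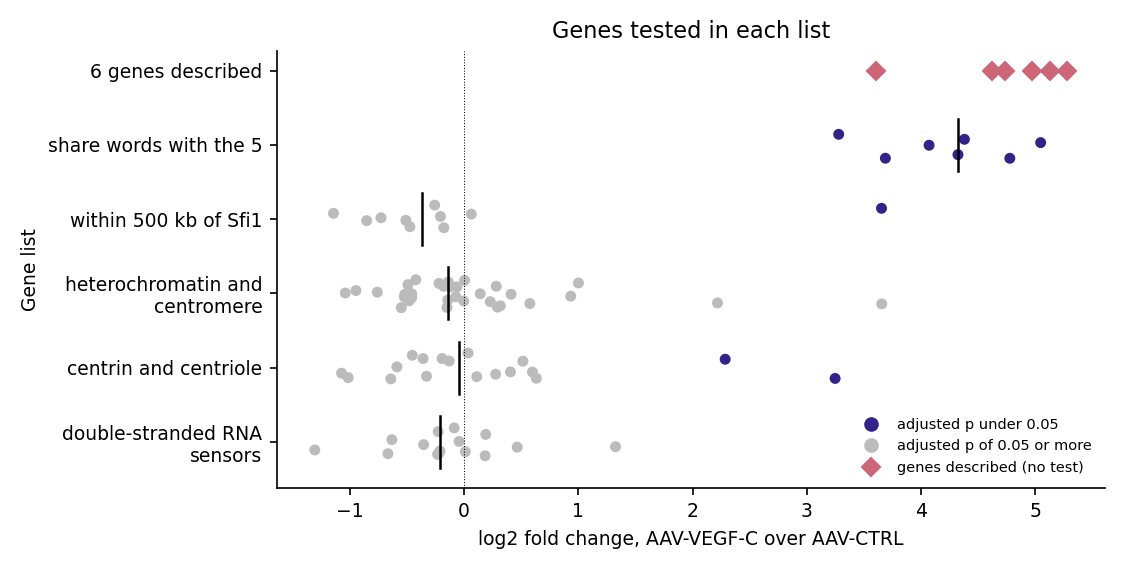
log2 fold change (AAV-VEGF-C over AAV-CTRL) of each tested gene, by list, with list medians as black lines; dark points passed an adjusted p of 0.05 in edgeR and red diamonds are the 6 genes described, which were not tested. The related-sequence genes lie at 3.28 to 5.05, while the medians of the other lists lie between -0.36 and -0.05.

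A set of genes that endothelium is not known to use was measured beside the 6. These were 1635 defensins, keratin-associated proteins and receptors of smell, pheromones and bitter taste. They summed to 260, 157 and 135 CPM in AAV-CTRL 1, 2 and 3 and to 6584, 3499 and 2703 CPM in AAV-VEGF-C 1, 2 and 3, a ratio of means of 23.2. The filter on low counts kept 201 of them, of which 174 (86.6%) were called higher. A gene near 0 in the controls could pass that filter only through the AAV-VEGF-C libraries, where it then had to be high, so this share carries no weight and the sums over all 1635 genes are the values to read. These calls numbered 0 without AAV-CTRL 2, AAV-CTRL 3 or AAV-VEGF-C 2 and 41 without AAV-VEGF-C 3.

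Within each library, the 5 predicted genes had 0.232, 0.177 and 0.399 counts for each count of the silent families in AAV-CTRL 1, 2 and 3, and 0.178, 0.429 and 0.439 in AAV-VEGF-C 1, 2 and 3. This ratio overlapped between the groups (0.270 ± 0.116 and 0.349 ± 0.148), unlike the levels themselves. For Sfi1 the ratio was 0.135, 0.194 and 0.253 in the controls and 0.0580, 0.0742 and 0.160 after AAV-VEGF-C, again with overlap. The mean for Sfi1 was 0.194 ± 0.0591 and 0.0973 ± 0.0546. The silent families, the predicted genes and Sfi1 were all higher after AAV-VEGF-C, but they did not vary together within that group. The highest level was in AAV-VEGF-C 1 for the silent families, AAV-VEGF-C 2 for the predicted genes and AAV-VEGF-C 3 for Sfi1. The part of the silent families in the difference was not tested.

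**Figure D5:**
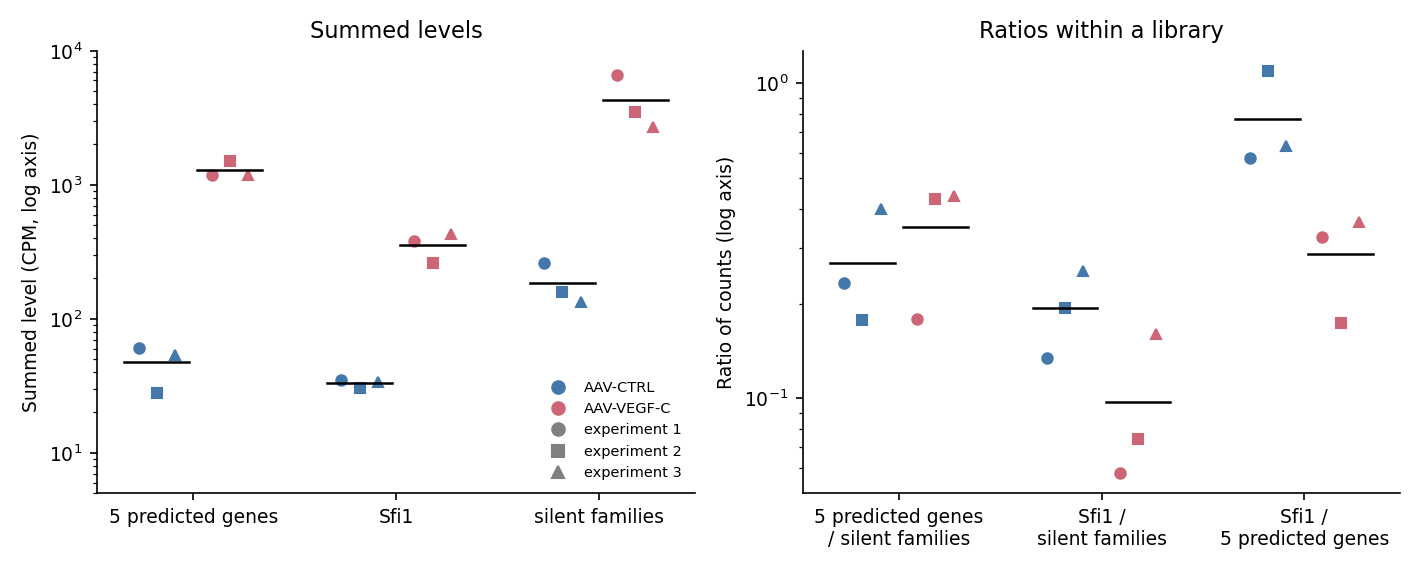
Left, summed level of the 5 predicted genes, of Sfi1 and of 1635 silent-family genes in each library (CPM, log axis); right, the ratios of their counts within each library (log axis), with group means (n = 3) as black lines. The predicted genes and the silent families differ 27.2-fold and 23.2-fold between group means, while their ratio overlaps between the groups.

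Shared words and base composition were set beside the calls over all genes. Of 1560 tested genes with over 50% of their words in other genes, 5.77% were called higher, against 11.1% of the 3285 with over 10% to 50%, 12.2% of the 9152 with up to 10% and 7.39% of the 3439 with none. The median log2 fold change ran from -0.13 in the last class, through -0.02 and 0.09, to 0.30 in the first. Of the 84 tested genes with a GC content no higher than that of the predicted genes, 25 (29.8%) were called higher, against 10.5% of all. The limit on GC content was set by the predicted genes, which had been chosen for their higher values. The share at low GC content is therefore not independent of that choice, and no conclusion is drawn from it. The predicted genes belong to this class and to the class with over 50% of words shared.

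The tested genes whose profile over the 6 libraries was nearest to the mean of the predicted genes were 9530053A07Rik (root mean square distance 0.219 on the log2 CPM scale), Gm11168 (0.238), Loxhd1 (0.253), Gm10801 (0.271) and Gm10719 (0.322). The 3 of these with a Gm name share sequence with the 5 genes, while 9530053A07Rik and Loxhd1 hold none of their words. 9530053A07Rik had 0.459, 0.255 and 0.242 CPM in the controls and 15.9, 17.8 and 16.5 CPM after AAV-VEGF-C. Nearest to Sfi1 were Hoxc8 (0.141), Bhlhe23 (0.152), Mei1 (0.154), Olfr843 (0.155) and Evx1os (0.158), all at or near 0 in AAV-CTRL. Profiles were taken with a small count added before the logarithm, which draws levels near 0 upward. The fitted log2 fold changes of these genes were 4.59 to 7.37, beside 3.61 for Sfi1, so the likeness is not one of fold change. Hoxc8, a homeobox gene, had no count in the controls and 3.54, 2.79 and 3.99 CPM after AAV-VEGF-C, close to the limit set by 3 counts, which was 0.920 to 5.31 CPM in those libraries.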

How the data were processed

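The 6 genes and the gene lists were chosen with earlier results of these data known. Per the labels, libraries were prepared from total RNA with a stranded kit for small amounts. The authors deposited TPM values, which they had scaled for length and library total, and unscaled estimated counts. The submitters' processing notes name FastQC, Trimmomatic, DRAGEN, Picard and mm10. The counting tool and the use of strand, molecular identifiers or multiply mapping reads are not given in the sources used here. Each library is a pool of mice from an independent experiment, so p-values measure the spread between these pools.

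Counts were rounded, filtered by filterByExpr, scaled by TMM and compared with edgeR 4.0.16 in R 4.3.3 (quasi-likelihood test, Benjamini-Hochberg threshold 0.05). The script was tested on simulated data. DESeq2 1.42.0 and limma 3.58.1 on log2(TPM + 1) and log2(TPM + 0.1) were alternatives, with other scalings and filters, the replicate block and leaving out each library. The study used DESeq2 too, with no version given for these cells. Libraries were compared across genes by how far each lay from the mean of its group. The correlation between AAV-CTRL and AAV-VEGF-C was 0.37, 0.28 and 0.15 for numbers 1, 2 and 3. For unequal numbers it was at most 0.22, between AAV-CTRL 3 and AAV-VEGF-C 2, which exceeds the value for number 3. Libraries of a group are tied through its mean, so these correlations are not independent. They do not establish that the numbers pair the libraries, and the main test did not use the numbers. No libraries of a group agreed within sampling noise. Depth was 564475 to 12399498 counts, which limits low genes in AAV-VEGF-C most. Words of 31 bases, GC content, positions and printed sequences came from GENCODE M21 transcripts, junctions included, since no genome was used here. Of the gene IDs, 98.1% matched with their version. Repeats were measured on the longest exon of each gene over shifts of 20 to 300 bases with at least 100 positions, over its first 2000 bases for the share of all genes. Apart from the 6 genes, the text names the called genes of each list, or the 2 most abundant where none was called and at most 4 where more were, and the 5 nearest profiles. Genes outside this rule are named as such. A gene that the rule names is not reported here.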

Additional observations from a re-analysis of the deposited data

How the results depend on the processing

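The median log2 fold change of the 5 predicted genes, 4.97, was 3.96 with limma on log2(TPM + 1) and 4.07 on log2(TPM + 0.1), and ranged from 4.65 to 5.23 when each library was left out. For Sfi1, 3.61 became 4.01 under a mean TPM minimum of 5, 2.46 and 2.59 with limma at the larger and smaller pseudocount, and 3.34 to 3.70 with a library left out. No value turned its direction. The median of all tested genes also moved, to -0.72 and -1.04 with limma at these pseudocounts, to -0.10 with library size alone, to 1.88 among the 44563 genes tested without a filter and to 2.29 among the 44552 given a value by DESeq2. Relative to it, the median of the predicted genes was 4.68, 5.11, 4.92, 2.83 and 2.63 and Sfi1 3.18, 3.63, 3.57, 1.44 and 1.26 in that order. The replicate block gave 5.02 for the median and 3.57 for Sfi1. The share of counts of the 5 genes in AAV-CTRL was 0.00782% on the TPM scale. With words of 25 bases, the shared words were 83.1% for Gm10715, 59.2% for Gm10717, 82.9% for Gm10722 and 13.1% for Sfi1.

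Counts of calls depended strongly on the settings. Without a filter, edgeR called 9382 genes higher and 1175 lower, 730 silent-family genes higher, 2 and 1 neighbours of Sfi1 higher and lower, 1 and 2 heterochromatin genes and 1 and 1 centriole genes. With the TPM minimum it called 9 higher and 0 lower, and 0 neighbours, centriole genes and silent-family genes higher. DESeq2 called 5659 higher and 501 lower, 501 silent-family genes and 2 neighbours higher, 1 heterochromatin gene higher and 2 lower, and 1 centriole gene lower. Limma with a pseudocount of 1 called 1112 higher and 434 lower, 94 silent-family genes higher and 1 neighbour and 1 centriole gene lower, and with either pseudocount 0 neighbours and 0 centriole genes higher. Library size alone gave 53 lower and 1 centriole gene higher, and DESeq2 size factors 1 centriole gene higher and 1 lower. The replicate block, with the pairing by experiment, gave 362 lower, 1 heterochromatin gene lower and 1 centriole gene higher and 1 lower, and changed no other call of the lists by over 1.5 times. With a library left out, calls ranged from 0 to 1771 higher and 0 to 48 lower among all genes, 0 to 4 for the chromosome 9 genes and for those sharing over 50% of words, 0 to 176 for silent families, 0 to 1 for neighbours and 0 to 1 for centriole genes. The cause was not tested.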
